A study of Homo sapiens with 3 samples.

Results

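The TRIM (tripartite motif) genes were examined across the 3 RNA sequencing libraries of a study that silenced the transcription factor E2F1. Members were all listed genes whose symbol is TRIM followed by digits and at most 1 letter, with 2 pseudogenes dropped, which gave 54 of the 22613 genes listed in each library. They were split into 5 interferon-linked members (TRIM5, TRIM14, TRIM21, TRIM22 and TRIM25) and 49 others. TRIM49D1, whose symbol ends in a letter and a digit, was outside this rule. Family genes such as TRIM26, TRIM27 and TRIM39 fit the rule but were not among the genes listed, so they were not analysed here. The cells were LNCaP-abl, an androgen-independent derivative of the LNCaP human prostate cancer line, grown in phenol-red-free medium with charcoal-stripped serum in both groups. The siE2F1 library (1 library) came from cells that received pooled siRNAs targeting E2F1 with a lipid carrier, and the control libraries (2 libraries, numbered 0 and 1) from cells given control siRNA. RNA was taken after 72 h in each case. The siE2F1 value of every gene is unreplicated, and no label tells if the controls were grown as separate cultures, so p-values measure only the spread between those 2 libraries, which may be technical.

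TRIM proteins carry a RING finger, 1 or more B-box zinc fingers and a coiled coil, and most act as E3 ubiquitin ligases, which join ubiquitin to a target with the help of an E2 enzyme. The C-terminal domain sorts them into subfamilies and chooses the target: a PRY-SPRY domain in many antiviral members, a PHD finger and bromodomain in chromatin regulators, and NHL, MATH or ARF domains in others. Several members are themselves induced by interferon and act on the sensors of viral RNA and DNA or on the virus itself. TRIM5 binds retroviral capsids, TRIM21 is a cytosolic receptor for antibody, and TRIM25 ubiquitinates the RNA sensor RIG-I.

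Promoter sequences were available in RefSeq (GRCh38.p14) for 41 of the 54 members, as windows from 250 bases before to 50 bases after a transcription start. The letters of the interferon-stimulated response element (ISRE), GAAANNGAAA or its reverse complement TTTCNNTTTC, occurred in 8 of these 41 (19.5%), against 4.38% of the 27305 genes with a window. Interferon-linked members hold 3 of those 8, and TRIM22 had no window and so was not searched. All 8 are shown, since members above and below the controls hold the same letters. Each stretch is 30 bases long, 5′ to 3′ on the gene's own strand, with the ISRE letters in capitals.
TRIM21: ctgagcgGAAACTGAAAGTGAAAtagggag
TRIM34: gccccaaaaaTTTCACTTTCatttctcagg
TRIM5: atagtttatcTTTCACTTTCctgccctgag
TRIM14: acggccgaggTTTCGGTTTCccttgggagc
TRIM44: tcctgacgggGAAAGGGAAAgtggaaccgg
TRIM16: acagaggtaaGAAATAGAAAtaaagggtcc
TRIM69: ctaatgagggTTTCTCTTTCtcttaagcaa
TRIM2: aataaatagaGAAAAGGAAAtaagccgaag
The TRIM21 stretch lies at chr11:4393663-4393692 (minus strand), with 2 overlapping matches, and spans positions 10 to 39 counted from the start base as 0. The TRIM34 stretch is at chr11:5624901-5624930 (plus strand, positions -100 to -71), that of TRIM5 at chr11:5685082-5685111 (minus strand, -37 to -8) and that of TRIM14 at chr9:98119229-98119258 (minus strand, -36 to -7). Those of TRIM44 at chr11:35662730-35662759 (plus strand, -45 to -16) and TRIM16 at chr17:15683012-15683041 (minus strand, -90 to -61) belong to members that lay below both controls in siE2F1. They did so by little, -0.07 and -0.01 log2 units from the nearer control, where the controls differed by -0.12 and -0.02. TRIM69 was too low to test. The TRIM69 stretch is at chr15:44736456-44736485 (plus strand, -72 to -43) and that of TRIM2, the farthest from its start, at chr4:153151936-153151965 (plus strand, -227 to -198). TRIM38, the tested member with the highest log2 fold change in siE2F1 on the log2(FPKM + 1) scale, and TRIM25 had no match in their windows, and the bases from -120 to -1 of each are given for comparison, TRIM38 at chr6:25962682-25962801 (plus strand) and TRIM25 at chr17:56914050-56914169 (minus strand).
TRIM38: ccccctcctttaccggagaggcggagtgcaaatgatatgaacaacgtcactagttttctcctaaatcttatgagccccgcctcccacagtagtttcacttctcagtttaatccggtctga
TRIM25: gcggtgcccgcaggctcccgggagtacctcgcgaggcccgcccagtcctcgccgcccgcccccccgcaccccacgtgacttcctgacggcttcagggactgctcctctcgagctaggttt
TRIM37, the tested member with the lowest log2 fold change on that scale, was the 1 matched member with the letters of an E2F site, searched as TTTCGCGC, TTTGGCGC and their reverse complements GCGCGAAA and GCGCCAAA. These letters occurred in 1.4% of all genes with a window. The bases from -250 to -131 before its start, at chr17:59107011-59107130 (minus strand), follow with the match in capitals.
TRIM37: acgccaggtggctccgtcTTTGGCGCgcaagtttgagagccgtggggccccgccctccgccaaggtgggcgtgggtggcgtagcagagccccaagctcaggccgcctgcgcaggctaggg
A match describes the letters of a window, not a bound site.

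E2F1 itself stood at 10.6 FPKM (fragments per kilobase of transcript and per depth unit, a level per length) in either control and at 1.68 FPKM in siE2F1. Its log2 fold change was -2.12 (SE 0.0605, limma adjusted p = 0.0311). This and all later fold changes are differences in log2(FPKM + 1). Of the 8 luminal prostate markers checked, all 8 were listed with a mean of at least 1 FPKM (a sum of 959.4 and 953.8 FPKM in the controls and 1085.7 FPKM in siE2F1), while KRT14, the basal marker listed, was at 0. The 2 listed leukocyte markers, CD68 and PTPRC, summed to 6.31, 6.44 and 6.09 FPKM, mostly CD68 (mean 5.48 FPKM). The 2 listed fibroblast markers summed to 1.59, 1.51 and 1.05 FPKM and PECAM1, of endothelium, was at 0.696, 0.769 and 0.837 FPKM. The depth is unknown, since no read counts are in the files used. In bulk RNA, fewer cells in a given state and less RNA per cell cannot be told apart.

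The family spanned a wide range of levels. A mean over the libraries of at least 10 FPKM was reached by 19 members, 5 lay between 5 and 10 FPKM, 11 between 1 and 5 FPKM, and 19 stayed under 1 FPKM and were not tested. TRIM28, the corepressor KAP1 that serves KRAB zinc finger proteins, was the most abundant with a mean of 100.3 FPKM, at percentile 96.9 of all listed genes. TRIM25 came next at 33.3 FPKM, then TRIM44, a RING-less member, at 20.4 FPKM, TRIM68, a coactivator of the androgen receptor, at 18.6 FPKM and TRIM16L at 17.8 FPKM. TRIM28 stood above TRIM25, and TRIM25 above TRIM44, in every library. TRIM68, with 19 FPKM in either control and 17.8 FPKM in siE2F1, stayed under TRIM44 in every library, but in control 1 (20.1 FPKM for TRIM44) by less than the spread of TRIM44 between the controls (SD 1.28 FPKM, n = 2). TRIM16L, at 18.9 FPKM in control 0, was not separated from TRIM68 there. TRIM16L and TRIM16 are near-identical in part of their sequence, so the split of reads between them is uncertain. Members just inside the minimum of 1 FPKM were TRIM58 (0.992 FPKM in the controls on average, 1.02 in siE2F1) and TRIM47 (1.35 and 0.389 FPKM). TRIM58 thus passed only with siE2F1 and TRIM47 only through the controls. Just outside were TRIM43 and TRIM61, at a mean of 0.978 and 0.941 FPKM.

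**Figure D1:**
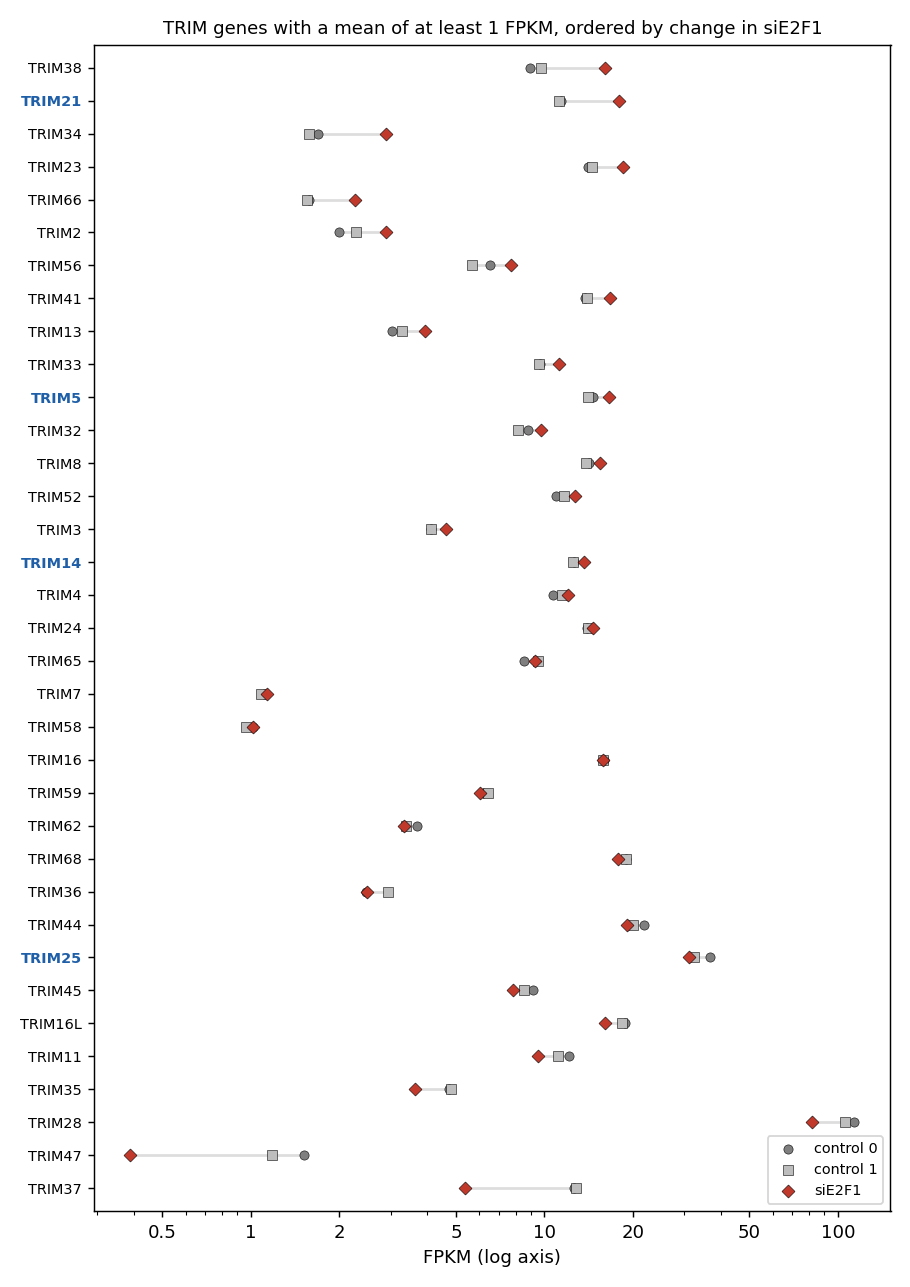
FPKM (log axis) of the 35 tested TRIM genes in control 0 (circle), control 1 (square) and siE2F1 (diamond), ordered by the log2 fold change in siE2F1; interferon-linked members are in blue. The diamonds of TRIM38, TRIM21 and TRIM34 lie to the right of both controls and those of TRIM37, TRIM47 and TRIM28 to the left, while in most other rows the 3 symbols lie close together.

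As a family, the TRIM genes did not shift in one direction. Of the 35 tested members, 20 lay above both controls in siE2F1 and 13 below both, against 43.7% and 39.7% of the 14401 genes tested. Their median log2 fold change was 0.05, and that of all genes tested 0.01. No member passed limma at an adjusted p of 0.05 (0.417% of all genes tested did), and 10 had an unadjusted p under 0.05 (28.4% of all genes). Without small RNA genes, where the prior degrees of freedom of the fit were 3.19 and not 1.69, TRIM38, TRIM21 and TRIM34 passed as higher and TRIM37 as lower, that is 3 and 1 of 35, where 4.17% and 6.36% of the genes passed. On the log2(FPKM + 1) scale TRIM37 alone lay at least 2-fold beyond both controls, while with a pseudocount of 0.1 TRIM47 did so too. Of all genes tested 0.833% lay that far below on the log2(FPKM + 1) scale and 0.743% above. In 25 of the 35 the distance from siE2F1 to the nearer control was larger than the gap between the controls, against 59.5% of all genes tested.

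**Figure D2:**
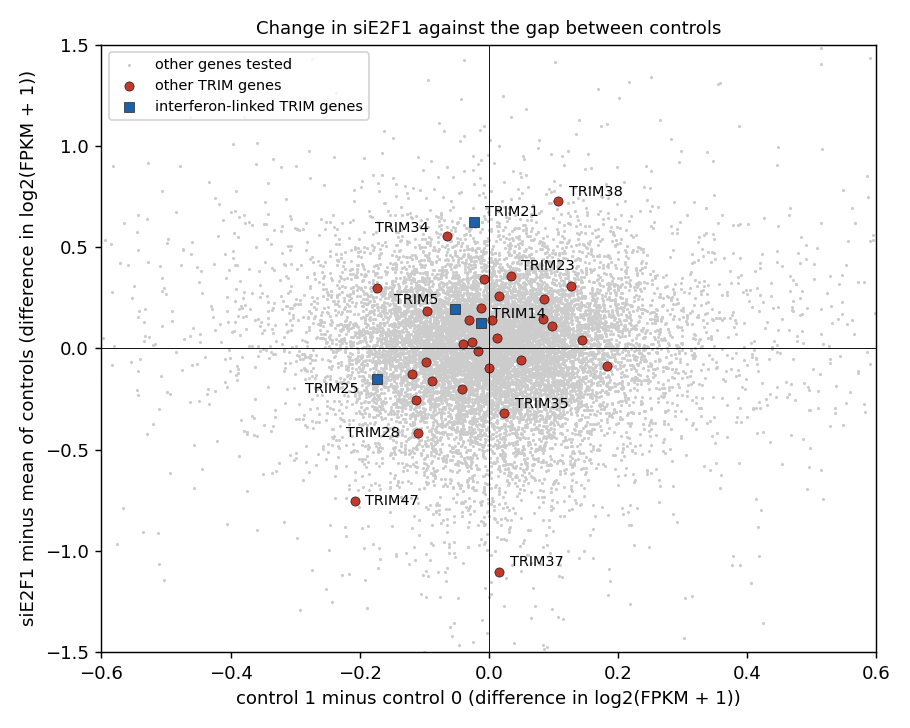
Difference between siE2F1 and the mean of the controls (vertical) against the difference between the 2 controls (horizontal), both in log2(FPKM + 1), for tested TRIM genes (circles, squares for interferon-linked members) over all other tested genes (grey); 545 genes beyond the axes are not drawn. TRIM38, TRIM21 and TRIM34 stand at the upper side and TRIM37 and TRIM47 at the lower side, and no TRIM gene has controls more than 0.21 apart.

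The interferon-linked members differed among themselves. TRIM21 measured 11.4 FPKM in control 0, 11.2 FPKM in control 1 and 18 FPKM in siE2F1 (values of other genes keep this order), and the siE2F1 value exceeded both controls, which lay almost together. Its log2 fold change was 0.63 (SE 0.0599, limma adjusted p = 0.111; 0.0353 without small RNA genes). TRIM22, an antiviral ligase known for strong induction by interferon, was barely detected, at 0.125, 0.161 and 0.333 FPKM. The siE2F1 library again held the highest value, 233.3% of the control mean, but the level was too low to test.

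TRIM5 was at 14.7, 14.1 and 16.6 FPKM (log2 fold change 0.19, SE 0.0649, adjusted p = 0.2). TRIM14, a RING-less adaptor of antiviral signalling at mitochondria, was at 12.6, 12.5 and 13.7 FPKM (0.12, SE 0.059, adjusted p = 0.288). For both genes siE2F1 stood above the 2 controls, by a margin that did not pass. TRIM25 went the other way, with 36.6, 32.4 and 31 FPKM. Its siE2F1 level lay -0.06 log2 units below the nearer control, while the controls differed by -0.17 between themselves (log2 fold change -0.15, SE 0.109, adjusted p = 0.437). The median of the 4 tested interferon-linked members was 0.16 and that of the 31 other tested members 0.04, with medians of -0.04 and -0.01 for the difference between the controls. With 3 libraries an exact permutation cannot give a one-sided p below 0.333, so the contrast between the groups of members stands as a description.

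Of the 3 tested members with the highest log2 fold changes, the 2 besides TRIM21 are also PRY-SPRY proteins. TRIM38, a regulator of Toll-like receptor and cytokine signalling that is itself inducible by interferon, was at 8.97, 9.74 and 16.1 FPKM. The siE2F1 library was well above both controls, and the log2 fold change was 0.73 (SE 0.0814, adjusted p = 0.111; 0.0353 without small RNA genes). This was the highest among tested members on the log2(FPKM + 1) scale, while with a pseudocount of 0.1 TRIM38 and TRIM34 were both at 0.78. TRIM34, a close relative of TRIM5, was at 1.7, 1.58 and 2.88 FPKM, again highest in siE2F1 (0.56, SE 0.0837, adjusted p = 0.112; 0.0473 without small RNA genes). In the GENCODE 29 annotation 86.9% of the exon bases of TRIM34 also belong to the read-through gene TRIM6-TRIM34, so these reads cannot be given to TRIM34 alone. TRIM41 was at 13.8, 14 and 16.8 FPKM (0.26, adjusted p = 0.142) and TRIM4, which acts on RIG-I, at 10.7, 11.5 and 12 FPKM. For TRIM7, a partner of glycogenin, and TRIM58 the fold changes were 0.03 and 0.02, with controls -0.03 and -0.04 apart.

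At the lower end of the same subfamily, TRIM47 was at 1.52, 1.18 and 0.389 FPKM, and the siE2F1 level was 28.8% of the control mean. The mean of TRIM47 over the libraries, 1.03 FPKM, reached the minimum of 1 FPKM only through the controls. Its place among the tested members below both controls thus depends on that filter. Its log2 fold change was -0.76 (SE 0.143, adjusted p = 0.127; 0.05002 without small RNA genes, short of the threshold), or -1.56 with a pseudocount of 0.1, since the level was low. TRIM65, its neighbour on chromosome 17 and a ligase of the RNA sensor MDA5, was at 8.51, 9.51 and 9.29 FPKM, between the controls. TRIM35 was at 4.73, 4.82 and 3.62 FPKM (-0.32, adjusted p = 0.131) and TRIM11 at 12.1, 11.1 and 9.55 FPKM (-0.25, adjusted p = 0.198), with siE2F1 below both controls in each. TRIM16L had a fold change of -0.20 while TRIM16, with 16, 15.8 and 15.8 FPKM, had -0.01. TRIM68 and TRIM62 were at -0.09 and -0.07. Within the PRY-SPRY subfamily 9 of 18 tested genes thus exceeded both controls and 8 stayed under both, with a median of 0.03 (all genes tested: 43.7% above, 39.7% below, median 0.01).

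TRIM21 and TRIM34 are both on the short arm of chromosome 11, where TRIM5, TRIM6, TRIM34 and TRIM22 are neighbours in RefSeq. TRIM6 was low, at 0.3, 0.402 and 0.386 FPKM, and its siE2F1 value lay between the controls, unlike those of TRIM5, TRIM34 and TRIM22. TRIM22 lies within the annotated span of TRIM5 on the opposite strand in GENCODE 29, with 0 shared exon bases. Of the 7 tested members on chromosome 11, 5 were above both controls and 2, TRIM44 and TRIM68, below, with a median of 0.19 (differences of -0.13 to 0.63), against 43.7% above and 39.7% below among all genes tested. The 10 other members on this chromosome were under 1 FPKM.

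TRIM37, the member with a MATH domain, restrains centriole duplication and is mutated in mulibrey nanism. The control libraries held 12.6 and 12.8 FPKM and siE2F1 held 5.38 FPKM, 42.4% of the control mean. The controls differed by 0.02 log2 units and siE2F1 lay -1.09 from the nearer of them. The log2 fold change was -1.10 (SE 0.0593, limma adjusted p = 0.0949; 0.0229 without small RNA genes). The size was the largest among tested members on the log2(FPKM + 1) scale, but with a pseudocount of 0.1 it was -1.22, against -1.56 for TRIM47. The next gene in RefSeq order, SKA2, which couples kinetochores to microtubules, was at 19.9, 21.2 and 6.7 FPKM (-1.48, adjusted p = 0.0898; 0.0197 without small RNA genes). PRR11, on its far side, was at 11.4, 11.5 and 8.45 FPKM (-0.40, adjusted p = 0.112; 0.0498 without small RNA genes). PPM1E, on the other side of TRIM37, was under 1 FPKM in each library and shares 5.52% of the exon bases of TRIM37 on the opposite strand. These 3 neighbours are named after their values were seen.

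Among the 4 members with a PHD finger and bromodomain, TRIM28 stood apart from the rest. It was at 113.8, 105.4 and 81.7 FPKM, lowest in siE2F1 by -0.36 log2 units from the nearer control (log2 fold change -0.42, SE 0.0846, adjusted p = 0.131; 0.0568 without small RNA genes). TRIM24, a histone reader and coregulator of nuclear receptors, was at 14, 14.1 and 14.6 FPKM (0.05). TRIM33, which acts in TGF-beta signalling with SMAD proteins, was at 9.69, 9.6 and 11.2 FPKM (0.20, adjusted p = 0.176). TRIM66, which binds HP1 proteins, was at 1.58, 1.56 and 2.26 FPKM (0.35, adjusted p = 0.142). In these 3 genes siE2F1 was above both controls, and in TRIM28 below.

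The remaining subfamilies have few members. TRIM23, which carries an ARF domain, was at 14.1, 14.5 and 18.6 FPKM, above both controls in siE2F1 (0.36, SE 0.0614, adjusted p = 0.121; 0.0598 without small RNA genes). All 3 members with NHL repeats were above both controls, as were 43.7% of all genes tested. They were TRIM2, a neuronal ligase at 2, 2.28 and 2.88 FPKM (0.31), TRIM32, mutated in a limb-girdle muscular dystrophy, at 8.78, 8.16 and 9.74 FPKM (0.18), and TRIM3 at 4.1, 4.12 and 4.62 FPKM (0.14). Their adjusted p ranged from 0.194 to 0.28.

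Of the members anchored in membranes, TRIM13 of the endoplasmic reticulum was at 3.03, 3.28 and 3.92 FPKM (0.24) and TRIM59 at 6.2, 6.45 and 6.03 FPKM (-0.06). TRIM59 shares 22.1% of its exon bases with SMC4 on the opposite strand, and the library kit does not mark strand. TRIM56, which acts in sensing of cytosolic DNA and RNA, was at 6.54, 5.69 and 7.72 FPKM (0.30), TRIM8 at 14.2, 13.9 and 15.5 FPKM (0.14) and TRIM52 at 11, 11.7 and 12.7 FPKM (0.14). TRIM44, TRIM45 and the microtubule-binding TRIM36 had fold changes of -0.13, -0.16 and -0.09, and for TRIM36 the siE2F1 value of 2.48 FPKM lay between controls of 2.46 and 2.93 FPKM.

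The 19 members under 1 FPKM included 12 that were lowest in siE2F1 and 5 that were highest, against 35.2% and 35.4% of the 7290 listed genes of that level. The 8 listed copies of TRIM43, TRIM48, TRIM49, TRIM51 and TRIM64, grouped here after their values were seen, were each lowest in siE2F1. TRIM49C was at 0.347, 0.4 and 0.157 FPKM and TRIM43B at 0.846, 1.05 and 0.636 FPKM. Near-identical copies can share reads, which was not measured here, so these 8 rows cannot be taken as 8 separate measurements. TRIM77, next to TRIM49 in RefSeq order on chromosome 11 but left out of that group, went the other way. It was listed at 0 in both controls and at 0.0289 FPKM in siE2F1. TRIM29, a gene of basal epithelium, was at 0.194, 0.134 and 0.118 FPKM. None of these low genes was tested, and with unknown depth no counting error can be given.

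**Figure D3:**
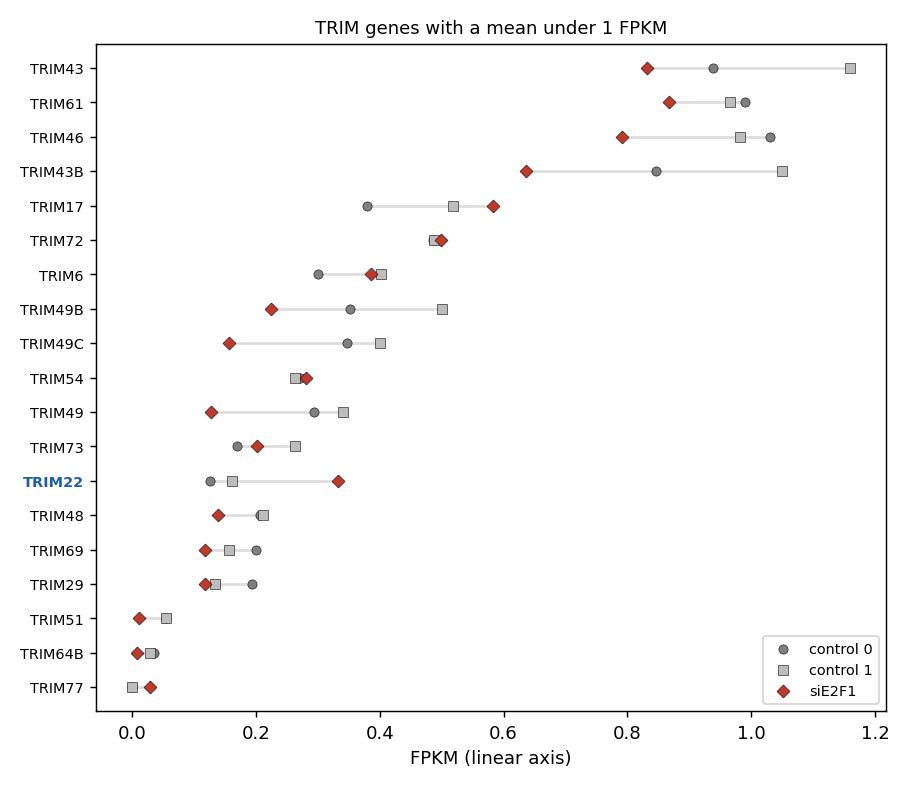
FPKM (linear axis) of the 19 TRIM genes with a mean under 1 FPKM in control 0 (circle), control 1 (square) and siE2F1 (diamond). The diamond is leftmost for 12 genes, among them TRIM43, TRIM43B, TRIM48, TRIM49, TRIM49B, TRIM49C, TRIM51 and TRIM64B, and rightmost for 5, with TRIM22 farthest beyond its controls.

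Genes that work with TRIM proteins lay on different sides of the controls. Their counts are to be read against all genes tested, of which 43.7% were above both controls and 39.7% below (median 0.01). The 15 tested partners of antiviral members divided into 8 above and 4 below the controls (median 0.10). DDX58, which encodes RIG-I, was at 2.51, 2.27 and 5.25 FPKM (0.88, adjusted p = 0.111; 0.033 without small RNA genes) and IFIH1, which encodes MDA5, at 3.17, 3.36 and 5.62 FPKM (0.63, adjusted p = 0.111; 0.0374 without small RNA genes). TMEM173, the adaptor STING, was at 1.2, 1.36 and 0.8 FPKM (-0.34) and ZC3HAV1, for which TRIM25 is a cofactor, at 11.7, 10.2 and 14.4 FPKM (0.37). The adaptor MAVS (0.24), the kinase TBK1 (0.10) and the transcription factor IRF3 (-0.22) did not pass in either fit.

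Among 12 tested E2 enzymes, 3 were above both controls and 6 below (median -0.07), where 43.7% and 39.7% of all genes tested were. UBE2N, which builds K63-linked chains with TRIM5 and TRIM21, was at 38.2, 39.4 and 27.9 FPKM (-0.46, adjusted p = 0.111; 0.041 without small RNA genes), and UBE2D1 at 7.21, 7.61 and 9.98 FPKM (0.38). UBE2D3 and UBE2E3 had fold changes of -0.26 and -0.28. The 16 partners of the PHD and bromodomain members were above both controls in 5 cases and below in 10 (median -0.07), beside the same 43.7% and 39.7%. SMAD4, a target of TRIM33, was at 5.26, 5.33 and 3.39 FPKM (-0.52, adjusted p = 0.111; 0.0403 without small RNA genes). RARA was at -0.34, and the HP1 gene CBX3, whose product binds TRIM28, at -0.23. Of the family genes with other symbols, MID1, a microtubule-bound ligase, was at 12.5, 12.3 and 16.6 FPKM (0.39, adjusted p = 0.113). PML, of nuclear bodies, was at 4.67, 4.19 and 4.35 FPKM, and MID2 and MEFV, like PML, lay between the controls.

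Beside these lists, 30 of 35 tested interferon-response genes were above both controls in siE2F1 and 2 below, with a median of 0.54, against 43.7% and 39.7% of all genes tested and their median of 0.01. BST2, IFI27 and IFI44 are among the 30 but reached the minimum mean of 1 FPKM only through siE2F1. They averaged 0.607, 0.765 and 0.344 FPKM in the controls and stood at 5.28, 9.71 and 2.58 FPKM in siE2F1, so their place above the controls follows from the filter. OASL, IFIT1, IFI6 and RSAD2 headed this list with fold changes of 3.93, 3.06, 2.93 and 2.79. DDX58 and IFIH1 are counted both in this list and among the partners of antiviral members. The 4 tested interferon-linked TRIM genes reached at most 0.63. In all, 5 of the 35 passed limma as higher and 0 as lower, where 0.312% and 0.104% of all genes tested did. Without small RNA genes 19 (BST2, IFI27 and IFI44 among them) and 0 passed, where 4.17% and 6.36% of the genes did.

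**Figure D4:**
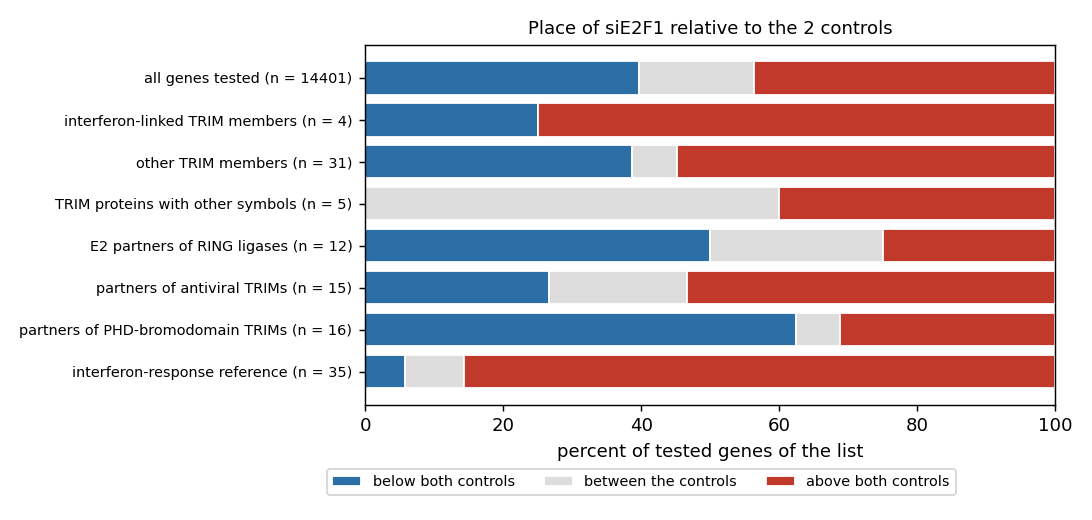
Percent of the tested genes of each list whose siE2F1 value lay below both controls, between them or above both, with the number tested in brackets. Of all genes tested 39.7% lay below and 43.7% above, 17 of the 31 other TRIM members lay above and 12 below, and 30 of 35 interferon-response genes lay above.

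The promoter letters and the measured values can be set side by side for 26 tested members with a window. The ISRE letters occurred in 7 of them, of which 5 (TRIM2, TRIM5, TRIM14, TRIM21 and TRIM34) were above both controls and 2 (TRIM16 and TRIM44) below, against 43.7% and 39.7% of all genes tested. The distance to the nearer control was 0.12 to 0.61 log2 units for those 5 and -0.07 to -0.01 for those 2. The letters of the gamma-activated site, TTCNNNGAA, occurred in 9 of the 41 matched members (22%) and in 9.38% of all genes with a window. Of the 4 tested members among these 9, 3 were above both controls and 1 below. The 9 include TRIM49, TRIM49B, TRIM49C and TRIM64B, of the copies described above, with TRIM49 and TRIM49C matching at the same positions (-173 and -35), so the share counts related sequences more than once. Those of the cell cycle genes homology region, TTTGAA or its reverse complement TTCAAA, occurred in 5 (12.2%) and in 18.2% of all genes, and the 3 tested members among these 5 were above both controls. With so few members these shares are descriptions.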

How the data were processed

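The authors deposited log2 FPKM, 1 value per gene in 1 file per library, per the file names. TopHat2 2.0.4, Cufflinks 2.0.2 and the build hg19 are named in the submitters' processing notes; no source names the annotation. The TruSeq RNA v2 library kit, named in the labels' protocols, does not mark strand. The lowest value equals log2 of 0.1, so FPKM was computed as 2 to the value minus 0.1. Sorted values of any pair of libraries differed by at most 0.0653 log2 units, as quantile normalization gives, which would hide a change shared by most genes. The 14401 genes averaging 1 FPKM or more entered the test on log2(FPKM + 1), which understates changes of low genes, in R 4.3.3 with limma 3.58.1 (mean-variance trend, two-sided, Benjamini-Hochberg over all genes tested at 0.05). For each gene 1 residual degree of freedom remains, and the variance of siE2F1 is taken to equal that of the controls. The fit was also run on simulated data. These had a common spread for all genes and no small RNA genes, so they cannot show the error rate of the main fit.

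Members, lists and settings were chosen with earlier results of these data known. All 5 interferon-linked members were named, then others by distance to the nearer control, and up to 4 genes per list; PML, MID2, MEFV, MAVS, TBK1 and IRF3 were named after their values were seen. Some list members are left out by name here. Settings varied were pseudocount, filter, scaling, trend, small RNA genes (SNOR, MIR, SCARNA, RNU), subtraction of 0.1 and each control. Sequences and gene order come from RefSeq GRCh38.p14; no hg19 coordinates were used.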

Additional observations from a re-analysis of the deposited data

How the results depend on the processing

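With a pseudocount of 0.1, 2 members (TRIM37 and TRIM47) lay at least 2-fold below both controls, against 1.53% of all genes tested. In that setting 18 genes were called in all and the E2F1 call was lost (-2.59, adjusted p = 0.0601). With no filter on mean FPKM limma called 0 of 21691 genes (4862 at an unadjusted p under 0.05), and E2F1 stood at -2.12 (adjusted p = 0.159). Of the 54 members 25 then lay above both controls and 25 below, against 40.9% and 38.2% of these 21691 genes. The medians were 0.19 for interferon-linked and -0.02 for other members, the latter reversed by the added low genes. At a minimum of 5 FPKM 13 of 24 members lay above both controls and 10 below, against 44.1% and 40% of the 9605 genes then tested. In that setting 1 family gene with another symbol lay above both controls, and 1 interferon-response gene lay below. Without small RNA genes 1467 genes were called, with 3 members higher and 1 lower. With nothing subtracted from FPKM the median of other members was 0.02. Under each of the 8 other settings with a test (7 for TRIM34, which is under 5 FPKM), TRIM21, TRIM34 and TRIM38 were higher and TRIM37 lower in siE2F1, with adjusted p up to 0.188 for each.

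Leaving out a control makes the position rule easier to meet and leaves no test. Then 2 to 5 family genes with other symbols were above and 0 to 3 below, 4 to 5 E2 enzymes above, and 3 to 4 interferon-response genes below, and the median of other members was 0.04 to 0.06. TRIM65 turned to -0.03 without control 0 (0.11 without control 1) and TRIM36 to 0.01 without control 1 (-0.18 without control 0). No paired analysis was possible because siE2F1 is a single library and its label carries no number. Unknown depth limits the members under 1 FPKM most.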
